A study of Mus musculus with 6 samples.

Results

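The cells described are rare duct cells of the mouse submandibular salivary gland that held RNA for the hydrogen peroxide-producing oxidase Duox2 and its partner Duoxa2 together with the luminal keratin Krt19. The members were chosen by their measured counts of these 3 genes: a cell barcode was taken as a member if it had at least 3 unique molecular identifiers (UMIs, each a counted RNA molecule) of Duox2 and Duoxa2 together and at least 2 of Krt19. It also had to qualify with at least 500 detected genes and at most 20% mitochondrial UMIs. The rule kept 69 of 11140 qualifying barcodes. They were 30 of 2629 barcodes from irradiated whole epithelium, 23 of 4093 from untreated whole epithelium and 16 of 4418 from an untreated basal sort.

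The study profiled sorted salivary epithelium with 3' droplet sequencing, in 1 pooled library per condition. All mice were wild-type C57BL/6J females, and glands were sorted after removal of dead cells and of cells stained for Cd3, Cd16/Cd32, Cd31 or Cd45. The irradiated library held Epcam+ cells taken 90 days after a 30 Gy stereotactic dose to the left gland. The basal sort held Epcam+ cells with high Cd49f from untreated mice, and the untreated whole epithelium held all Epcam+ cells from untreated mice. Each library pooled 3 mice marked with antibody hashtags, from which cells were assigned to mice here. The age given for every group was 8 to 10 weeks, which cannot be the age of the irradiated mice at collection, so irradiation, age and library cannot be told apart.

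Dual oxidases are membrane enzymes that pass electrons from NADPH to oxygen at the cell surface and release hydrogen peroxide. DUOXA2 is the maturation factor that DUOX2 needs to leave the endoplasmic reticulum and become active. In salivary ducts and other mucosal surfaces, the peroxide is used by lactoperoxidase in antimicrobial defence, and KRT19 marks luminal cells of simple and ductal epithelia.

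The mouse genes lie head to head on chromosome 2. In GRCm38.p6, Duox2 spans chr2:122279246-122298740 on the minus strand and Duoxa2 spans chr2:122298900-122302885 on the plus strand. The 159 bases between their annotated starts (chr2:122298741-122298899, intergenic) are shown from RefSeq on the plus strand because both genes start from its ends, with a TATAAA match in capitals.

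Duox2-Duoxa2 gap: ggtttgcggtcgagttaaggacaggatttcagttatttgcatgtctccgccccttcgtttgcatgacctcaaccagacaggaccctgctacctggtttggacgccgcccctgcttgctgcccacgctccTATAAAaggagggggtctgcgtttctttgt

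The TATAAA match begins 30 bases before the Duoxa2 start. TATAAA was found, on either strand, in 7.95% of the 32851 RefSeq windows of the same length before a gene start. ATTTGCAT, searched after the sequence had been read, matched once, and 1.05% of windows held it. TGANTCA and CCAAT had no match on either strand, and 4.51% and 25.4% of windows held them.

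Duoxa2 and Duox2 chose the cells, so their levels are given without a test. Duoxa2 had 860 UMIs in irradiated members, a level of 1130 CPM (counts scaled to the total of all gene UMIs in the summed cells, not to gene length). Basal-sort members had 743 UMIs of Duoxa2, or 2323 CPM, and untreated members had 896 UMIs, or 2430 CPM. Per cell, Duoxa2 ranged from 0 to 107 UMIs with a median of 22 in irradiated members, and from 3 to 90 with a median of 36 in untreated members. The cells spread widely and the ranges overlapped. Duox2 stood at 329 CPM in irradiated members, 1401 CPM in basal-sort members and 1028 CPM in untreated members, and its per-cell medians were 7, 28.5 and 18 UMIs in that order.

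Krt19, the other gene of the rule, stood at 238 CPM in irradiated members, 1767 CPM in basal-sort members and 1297 CPM in untreated members. The median member had 4 Krt19 UMIs in the irradiated library, 37 in the basal sort and 9 in untreated epithelium. In all, 24 of 30 irradiated members and 4 of 16 basal-sort members had fewer than 10 Krt19 UMIs, against 12 of 23 untreated members. The irradiated members therefore sat nearer the lower limit of the rule, as the plot of Krt19 and Duox RNA per cell shows. All these sums are of cells of 1 library, so their counting intervals cover counting error only: for Krt19 they were 205 to 275 CPM in irradiated and 1183 to 1418 CPM in untreated members (exact Poisson, 95%).

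**Figure D1:**
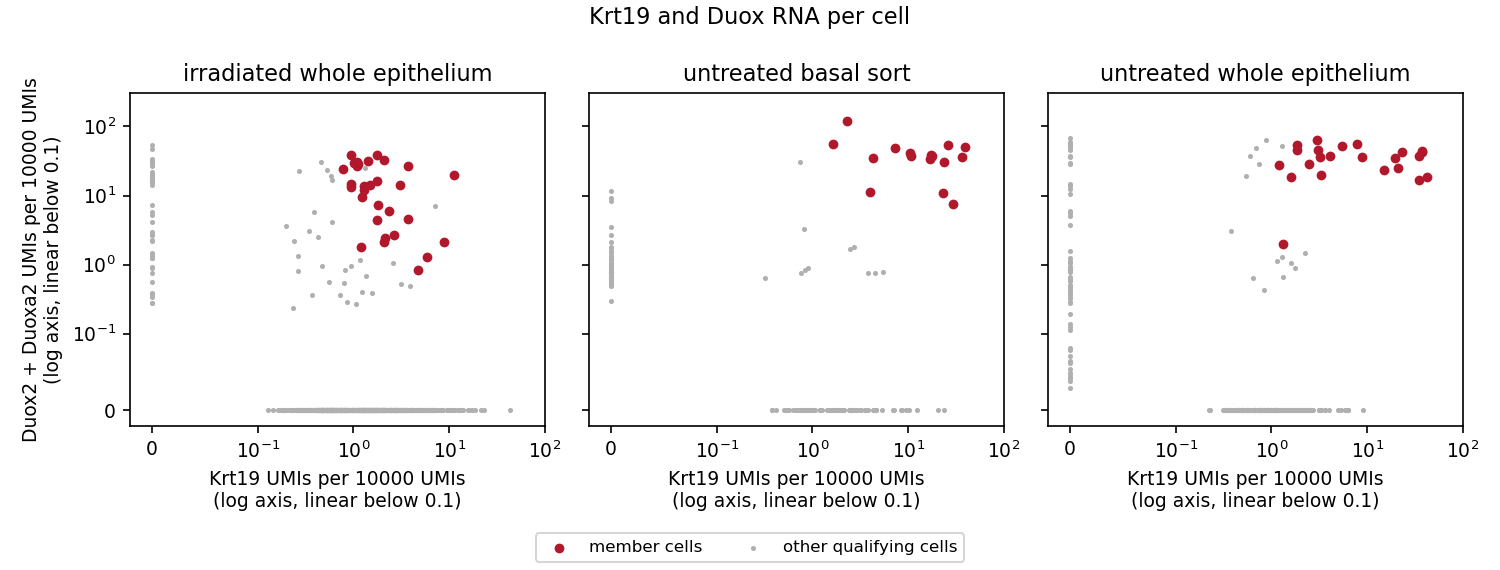
Each point is a qualifying cell, with Krt19 UMIs per 10000 UMIs on the x axis and Duox2 plus Duoxa2 UMIs per 10000 UMIs on the y axis. Both axes are logarithmic and linear below 0.1, and cells with neither are not drawn. Members are red. The 30 irradiated members lie at low Krt19 levels, the 16 basal-sort and 23 untreated members reach higher ones, and cells with Duox RNA and 0 Krt19 UMIs form the column on the left of each panel.

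The Krt19 limit cut through the cells with Duox RNA. Of 74 irradiated cells with at least 3 Duox UMIs, 30 had no Krt19 UMI and 14 had 1. The numbers were 2 and 2 of 20 in the basal sort and 17 and 7 of 47 in untreated epithelium. Just inside the limit, the 12 irradiated members with 2 or 3 Krt19 UMIs had a median of 40.5 Duox UMIs, and just outside it the 14 cells with 1 Krt19 UMI had a median of 16.5. In untreated epithelium 5 such members had a median of 29, and 7 cells with 1 Krt19 UMI had a median of 41. At the Duox limit, 4 irradiated members and 1 untreated member had 3 to 5 Duox UMIs, and 13 and 5 other cells had 1 or 2. Of 605 irradiated cells with at least 2 Krt19 UMIs, 562 had no Duox UMI, as had 44 of 65 in the basal sort and 83 of 111 in untreated epithelium. Krt19 UMIs were found in 33.8% of the other irradiated cells, 2.09% of the other basal-sort cells and 5.65% of the other untreated cells.

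Members held 45.4% of all Duox2 and Duoxa2 UMIs of qualifying cells in the irradiated library, 91.5% in the basal sort and 58.0% in untreated epithelium. Outside the Duox cluster described below, at least 1 Duox UMI was found in 2.45% of 777 untreated acinar-like cells with a median of 65890 UMIs, 0.392% of 766 irradiated ionocyte-like cells with a median of 16859, and 0 of 144 endothelial-like cells of the basal sort with a median of 3626. Other clusters held more: 3.56% of 1209 irradiated non-members of cluster 21, with a median of 23040 UMIs, had Duox RNA. So did 6.67% of 75 irradiated cells of cluster 16, an unnamed group with a median of 2428, and 17.2% of 186 basal duct-like cells of cluster 5 in the basal sort. The paralogues had few UMIs in the members. Duox1 had 0 UMIs in irradiated, 2 in basal-sort and 0 in untreated members, and Duoxa1, the maturation factor of DUOX1, had 0, 5 and 1.

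The libraries held 58485558 gene UMIs in 3319 deposited barcodes (irradiated), 59207148 in 5044 (basal sort) and 137835128 in 8277 (untreated). The qualifying limits removed 690, 626 and 4184 barcodes, and the median mitochondrial share over all untreated barcodes was 19.3%. Irradiated and untreated libraries shared 8 barcodes, irradiated and basal 1, and untreated and basal 15, none of them members. Median UMIs were 21850 in irradiated, 18493 in basal-sort and 16051 in untreated members, while the other cells of those libraries had medians of 19429, 12850 and 12906. Members' median mitochondrial share was 4.94% in the irradiated library, 9.91% in the basal sort and 10.5% in untreated epithelium. By hashtag, 24, 13 and 22 members were single cells of 1 mouse in that order. A further 6 irradiated members were hashtag doublets (20% of members, against 6.88% of all irradiated cells), as were 2 basal-sort and 0 untreated members.

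Unsupervised clustering of all qualifying cells gave 24 clusters, and 55 of the 69 members fell in cluster 11, a group of 97 cells with raised luminal duct markers, called luminal duct-like. Its leading genes were Duoxa2, Duox2, Sptssb, Krt19, Cat, Gdf15, Sord, Gsta3, Hsd11b1 and Cst6. These are genes that defined the cluster and are no result. The luminal marker list holds the rule genes Duox2, Duoxa2 and Krt19, and also Sptssb and Areg. The name of the cluster thus rests partly on genes that chose the members. Cluster 11 held 15 of 16 basal-sort and 21 of 23 untreated members but 19 of 30 irradiated members. The other 11 irradiated members lay in cluster 21, an unnamed group of 1234 cells, 1220 of them irradiated, led by Lgals3, Reg3g and Pon1 with Klk1 among its top genes. Cluster 11 also held 42 cells that were not members, of which 28 had no Krt19 UMI and 13 had 1.

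The mice differed in this. Irradiated mouse 1 had 1 member in cluster 11 and 4 in cluster 21, irradiated mouse 3 likewise had 1 and 4, and irradiated mouse 2 had 12 and 2. Members of irradiated mice 1 and 3 had median Duox counts of 9 and 10 UMIs, against 48 in irradiated mouse 2. In untreated mice the medians were 29, 54 and 80, and 21 of their 22 members were in cluster 11. Cluster 11 took its name from luminal markers, the rule genes among them. The members of irradiated mice 1 and 3 were mostly cells with few Duox UMIs in a large unnamed cluster.

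**Figure D2:**
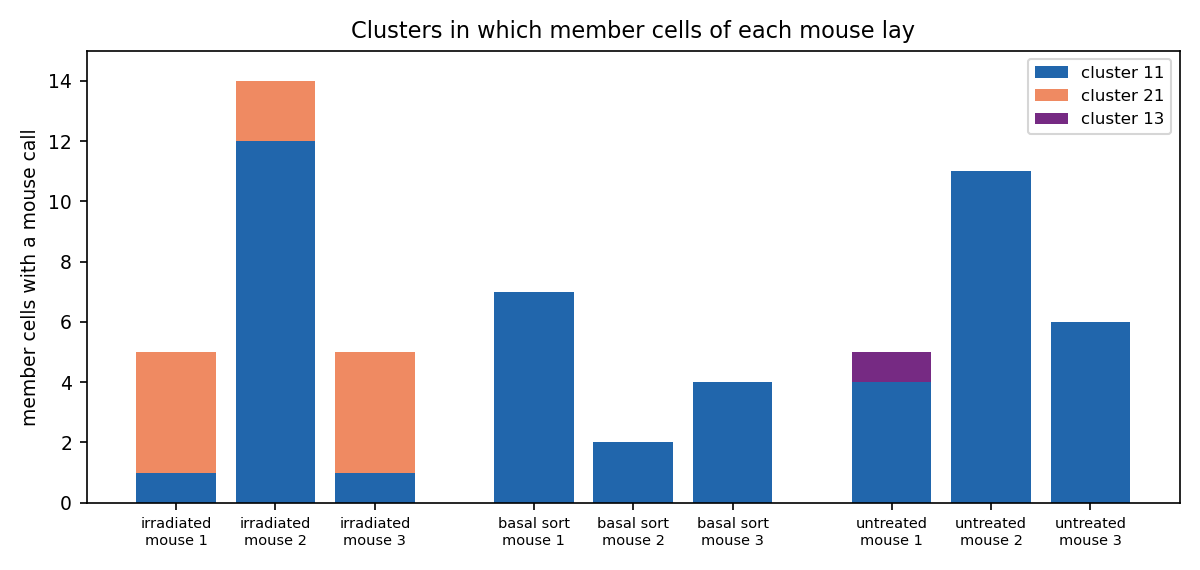
Bars give the number of member cells assigned to each of 3 mice per library, coloured by the cluster in which they lay. Irradiated mice 1 and 3 had 4 of 5 members each in cluster 21, and no untreated or basal-sort mouse had any there.

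Checked against marker lists, 4 of 11 luminal duct genes outside the rule were at least 2-fold higher in irradiated members than in the other cells relative to the median gene, 9 of 11 in basal-sort members and 8 of 11 in untreated members. Of all genes, 5.81, 18.8 and 10.4% were that much higher. In irradiated members those 4 were Krt7, Muc1, Sptssb and Areg, while Cldn4, a claudin, stood at 5068 CPM in members and 5061 CPM in other cells, and the transcription factor Elf3 at 204 and 278 CPM. Sptssb and Areg are label markers, chosen with earlier results of these data known. At least 2-fold lower were 0 luminal genes in irradiated members, Areg in basal-sort members and Ehf in untreated members. Of all genes, 13.2, 26.8 and 23.8% were that much lower. Krt5, Krt14, Krt15, Krt17 and Trp63, which mark basal cells, were at 0 in irradiated members, where the summed basal duct list stood at 223 CPM, against 2924 CPM in basal-sort and 1500 CPM in untreated members. For that list the other cells had 372 CPM when irradiated, 8353 CPM when basal-sorted and 142 CPM when untreated. In untreated members 4 of 9 basal duct genes were at least 2-fold higher than in the other cells (Krt5, Krt17, Itgb4 and Lamb3). Krt15 was at least 2-fold lower there, and Trp63 was at 0. Krt17 was found in 7 of 23 untreated members, and 248 of its 343 UMIs came from 1 cell. Summed per mouse, the basal duct list stood at 272, 961 and 2965 CPM in untreated members and 215, 268 and 267 CPM in the other singlets. The basal markers were thus spread unevenly over untreated members and mice. Granular duct genes, which encode kallikreins and other secreted proteins, summed to 130823 CPM in irradiated, 15667 CPM in basal-sort and 48884 CPM in untreated members. They summed to 181205 CPM in the other irradiated cells, 1757 CPM in the other basal-sort cells and 45509.6 CPM in the other untreated cells. These levels are sums over all qualifying cells of a library, with or without a mouse call. Per mouse, untreated members had 62838, 50725 and 40328 CPM, against 97133, 109801 and 94498 CPM in the other singlets. Irradiated members had 173285, 116790 and 120580 CPM, against 191292, 178727 and 224667 CPM. Whether granular duct RNA in members came from outside them was not tested.

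Members made up 1.14% of qualifying irradiated cells (exact 95% interval 0.771 to 1.63%), 0.362% of basal-sort cells (0.207 to 0.587%) and 0.562% of untreated cells (0.357 to 0.842%). Among hashtag singlets, the share was 1.38, 1.07 and 1.05% in the 3 irradiated mice, against 0.697, 1.43 and 0.886% in the 3 untreated mice. The groups overlapped. The means were 1.16 ± 0.187% in irradiated and 1.00 ± 0.379% in untreated mice (SD, n = 3 each), a difference of 0.162 percentage points (exact two-sided permutation test, p = 0.6, smallest possible 0.1). After each cell had been thinned to 5000 UMIs, 6 irradiated and 17 untreated members were left, and 144 and 228 shallower cells were left out. The thinned shares were 0.314, 0.316 and 0.235% in irradiated mice and 0.466, 1.46 and 0.660% in untreated mice. The groups no longer overlapped and the difference was -0.572 points (exact p = 0.1, the smallest possible). The sign of the difference thus changed with thinning.

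In the basal sort the share was 0.543, 0.239 and 0.376%, below each untreated mouse. The means were 0.386 ± 0.152% in the basal sort and 1.00 ± 0.379% in untreated whole epithelium (SD, n = 3 each), a difference of -0.617 points (exact two-sided permutation test, p = 0.1, the smallest possible). The sort on Cd49f decides which cells could be counted, and the untreated mice are those of the comparison above. Thinned to 5000 UMIs, the groups overlapped and the difference was -0.446 points (exact p = 0.2).

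**Figure D3:**
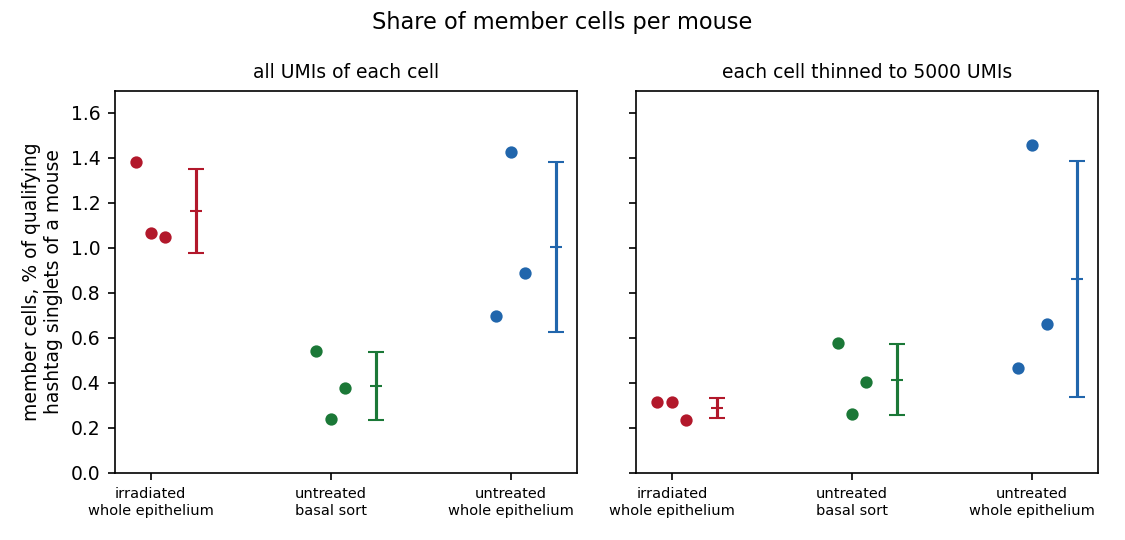
Points are mice and bars the mean ± SD (n = 3) of the share of members, in percent of qualifying hashtag singlets, from all UMIs (left) and after thinning every cell to 5000 UMIs (right). Irradiated mice run from 1.05 to 1.38% on the left and from 0.235 to 0.316% on the right.

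Members were compared with the other cells of the same mouse in the irradiated mouse and the untreated mouse that each had at least 10 members. In both, 138 of 1805 genes (7.65%) were at least 2-fold higher in members and 41 of 1343 (3.05%) at least 2-fold lower. These are descriptions, since the rule chose the cells on this contrast. With all 6 whole-epithelium mice the counts were 23 and 10. The untreated values carry an offset: the median gene was 0.99 higher (log2) in members of untreated mouse 2, and 0.14 higher in irradiated mouse 2.

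Sptssb, which encodes a small subunit of serine palmitoyltransferase, the first enzyme of sphingolipid synthesis, stood at 90.7 CPM in irradiated members, against 9.59 CPM in the other irradiated cells. It stood at 660 CPM in basal-sort members (2.03 CPM in the other cells) and 491 CPM in untreated members (0.269 CPM). In untreated epithelium 85.4% of its UMIs lay in the 23 members, and in the irradiated library 11.3% lay in the 30 members. The log2 ratio of Sptssb in members over other cells was 1.47, 3.62 and 0.81 in irradiated mice, 8.10, 7.71 and 8.76 in basal-sort mice and 5.91, 9.24 and 8.48 in untreated mice.

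Cat encodes catalase, which breaks down hydrogen peroxide. It stood at 815 CPM in irradiated members and 107 CPM in the other irradiated cells, and at 5044 CPM in basal-sort members and 153 CPM in the other basal-sort cells. In untreated epithelium it stood at 3670 CPM in members and 52.3 CPM in other cells. Every one of the 16 basal-sort and 23 untreated members had Cat UMIs, as did 27 of 30 irradiated members. Gsta3 and Gsta4, glutathione transferases, were higher in the members of all 6 whole-epithelium mice, by log2 ratios of 3.39 to 5.01 and 1.54 to 4.24. Me1, malic enzyme, which makes NADPH, was higher by 1.48 to 5.30 and Cbr3, a carbonyl reductase, by 2.44 to 4.62.

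Sord, sorbitol dehydrogenase, is the neighbour of Duox2 on chromosome 2 (chr2:122234839-122265337). It stood at 206 CPM in irradiated members (23.4 CPM in the other cells), 385 CPM in basal-sort members (18.2 CPM) and 575 CPM in untreated members (6.90 CPM). Shf, the next gene beyond Duox1, had 1 UMI in the members of each library. Hsd11b1, which interconverts active and inactive glucocorticoids, was higher in the members of all 6 mice by log2 ratios of 2.15 to 5.33. It stood at 1014 CPM in irradiated, 641 CPM in basal-sort and 911 CPM in untreated members. Muc1, a membrane mucin, Cst6, a cystatin protease inhibitor, Cldn23, a claudin of tight junctions, and Bace2, an aspartyl protease, were also more than 2-fold higher in the members of all 6 mice.

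Areg encodes amphiregulin, a ligand of the epidermal growth factor receptor. It had 289 UMIs in irradiated members (380 CPM, against 57.7 CPM in the other cells), of which 194 came from 3 cells. In basal-sort members it had 1 UMI, and in untreated members 97, of which 95 came from 3 cells. In irradiated members 21 of 30 cells had at least 1 Areg UMI, against 19.2% of the other irradiated cells. In untreated members 5 of 23 cells did, and 1.65% of the other cells. Areg RNA was thus spread over most irradiated members and held by a few untreated members.

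Of the genes named by the same rule, Ifi202b, Cyp2a5, Slc4a4 and Gsto1 were past 2-fold in only 4, 3, 4 and 4 of the 6 mice. Slc4a4, a sodium bicarbonate cotransporter, ran from a log2 ratio of -3.02 in untreated mouse 1 to 5.35 in untreated mouse 2. The genes named as lowest in members were Dcn, a fibroblast proteoglycan, the acinar and secretory genes Smgc, Pip, Car6, Scgb1b27 and Mucl2, the granular duct genes Egf and Klk1b22, the ionocyte gene Hepacam2, and Slc12a2, a chloride cotransporter. Egf and Klk1b22 were lower in the members of all 6 mice, by log2 ratios of -8.01 to -2.72 and -7.11 to -4.13. Slc12a2 was not lower in irradiated mouse 1 (0.29) or untreated mouse 1 (0.35), Car6 was higher in irradiated mouse 3 (1.88), and Scgb1b27 and Smgc were under 2-fold lower there (-0.06 and -0.93).

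**Figure D4:**
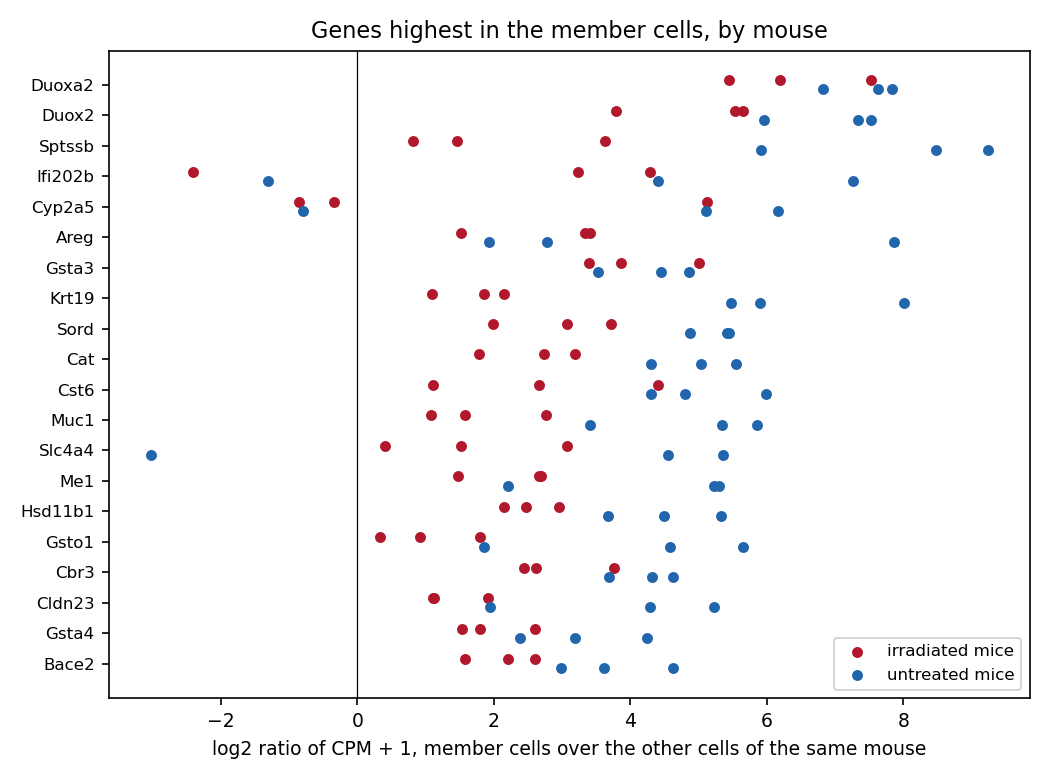
Each point is a mouse (3 irradiated, red; 3 untreated, blue), and the x axis is the log2 ratio of CPM plus 1 in members over the other cells of that mouse. Sptssb, Krt19 and Cat lie further right in untreated mice, and Gsta3 lies between 3.39 and 5.01 in all 6.

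Gene lists were then read as counts of genes at least 2-fold higher in members than in the other cells, relative to the median gene of the library. The share of all genes so called was 5.81% in the irradiated library, 18.8% in the basal sort and 10.4% in untreated epithelium, and 13.2, 26.8 and 23.8% were at least 2-fold lower. Of the peroxide handling genes, 5 of 19 were higher in irradiated members, 9 of 20 in basal-sort members and 11 of 21 in untreated members, and 2, 2 and 3 were lower. Cat, Gclc and Gclm were in all of these sets (Gclc and Gclm make glutathione). Nqo1, a quinone reductase, had 11 UMIs in irradiated members (14.5 CPM, against 0.567 CPM in the other cells), 25 in basal-sort members (78.2 CPM, against 2.08 CPM) and 25 in untreated members (67.8 CPM, against 0.269 CPM).

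In the sphingolipid list 1 of 16 genes was higher in irradiated members (Sptssb), 4 of 16 in basal-sort members (Sptssb, Sptlc1, Ormdl2 and Ormdl3) and 3 of 16 in untreated members (Sptssb, Cers2 and Sgms2). Lower were 4 of 16 in irradiated members (Cers4, Cers6, Degs1 and Ugcg), 2 of 16 in basal-sort members and 2 of 16 in untreated members. Sptssa, the ubiquitous counterpart of Sptssb, was near the median gene, at relative log2 values of -0.50, -0.26 and 0.06 in that order. Of the EGF receptor and ligand list, 2 of 11 genes (Areg and Hbegf) were higher in irradiated members, 4 of 12 in basal-sort members (Ereg, Hbegf, Btc and Erbb2) and 4 of 11 in untreated members (Areg, Hbegf, Erbb2 and Errfi1), while 2, 1 and 2 were lower. Hbegf, heparin-binding EGF-like growth factor, stood at 605 CPM in irradiated, 1476 CPM in basal-sort and 941 CPM in untreated members. Of the NADPH oxidase genes outside the rule, 0 of 3 were higher in irradiated members, 2 of 5 in basal-sort members (Duox1 and Duoxa1) and 0 of 3 in untreated members. Duoxa1 stood at 15.6 CPM in basal-sort members, in 5 of 16 cells, and at 4.21 CPM in the other basal-sort cells.

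Some lists differed in their counts between libraries, which was not tested. Of the wound and plasticity genes, 4 of 23 were higher in irradiated members (Ly6a, Itgb6, Ccn1 and Ccn2), 9 of 24 in basal-sort members and 18 of 23 in untreated members (Krt6a, Krt17, Ly6d, S100a6 and Anxa3 among them), and 5, 5 and 2 were lower. S100a6, a calcium-binding protein, stood at 1186 CPM in irradiated members and 3126 CPM in the other irradiated cells, and at 5796 CPM in untreated members and 240 CPM in the other untreated cells. Immediate-early genes, induced within minutes of many stimuli and of tissue dissociation, were higher in members for 11 of 20 genes in the irradiated library, 3 of 20 in the basal sort and 1 of 20 in untreated epithelium, and lower for 1, 1 and 2. Interferon genes were higher for 2 of 26, 13 of 26 and 9 of 25 in that order, and lower for 3, 7 and 5. Proliferation genes were higher for 0 of 18, 0 of 20 and 1 of 18, and lower for 8, 14 and 10. Summed per mouse, immediate-early genes stood at 7281, 21290.5 and 8524 CPM in irradiated members and 9066, 8817 and 7988 CPM in other cells. Among the irradiated mice, the excess thus lay mainly in mouse 2. The 6 irradiated members that were hashtag doublets are in the counts of genes but not in these sums. Over all 30 irradiated members the list stood at 17733 CPM, against 8848 CPM in the other cells. In untreated mice the sums were 19722, 10483 and 23843 CPM in members and 10740, 11119 and 14327 CPM in other cells. The untreated counts are relative to a median gene that was 1.09 higher (log2) in members.

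Members with much and little Krt19 also differed in other genes, though not alike in the 3 libraries. In irradiated epithelium the 6 members with at least 10 Krt19 UMIs and the 24 with fewer had 1534 and 1078 CPM of S100a6, 261 and 170 CPM of Gsto1, and 0 and 49.9 CPM of Thbs1. Their Duoxa2 stood at 428 and 1348 CPM. In untreated epithelium the 11 members with at least 10 Krt19 UMIs and the 12 with fewer had similar Duoxa2, at 2369 and 2485 CPM. Those with at least 10 had 10675 CPM of S100a6, 2392 CPM of Gsto1, 579 CPM of Ecm1 and 407 CPM of Thbs1, against 1420, 226, 61.7 and 41.2 CPM in those with fewer. Prss22 and Prss27, serine proteases of epithelia, stood at 361 and 321 CPM in the first set and at 30.9 and 5.15 CPM in the second. In the basal sort the 12 members with at least 10 Krt19 UMIs had 7044 CPM of S100a6 and 307 CPM of Prss27, against 2900 and 0 CPM in the other 4. Klk1, a kallikrein of the duct, ran the other way in untreated members, at 23845 CPM with at least 10 Krt19 UMIs and 53707 CPM with fewer. These groups share mice unevenly (the median Krt19 count was 46 UMIs in untreated mouse 2 and 3 and 5 in untreated mice 1 and 3), so mouse and Krt19 class cannot be told apart.

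Across the 69 members, Duox2 and Duoxa2 levels per cell varied together (Pearson r = 0.77 on log values, 0.69 within libraries). The 10 genes that correlated best with the summed Duox level, among genes found in the majority of members, were Gsta3 (r = 0.66), Cat (0.64), Pgrmc1 (0.61), Csad (0.59), Gstm1 (0.57), Prdx5 (0.57), Taldo1 (0.56), Hspb1 (0.55), Ces1d (0.55) and Gsta4 (0.54). Within libraries these values fell to between 0.33 and 0.61. Gsta3, Gstm1 and Gsta4 are glutathione transferases, Prdx5 is a peroxiredoxin and Taldo1 is an enzyme of the pentose phosphate pathway. Krt19 and Sptssb had r = 0.66 over all members and 0.18, 0.33 and 0.65 within irradiated, basal-sort and untreated members. The cells share libraries, mice, depth and clusters, so these values are descriptions. Irradiated members lay in cluster 11 (19 cells) and cluster 21 (11 cells), which the values within libraries do not separate.

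Irradiated and untreated members were compared through counts summed per mouse. The design asked for 10 members per mouse, which only 1 mouse per group reached, so a minimum of 5 was chosen after the cell counts were seen. It kept all 6 mice, with 5, 14 and 5 cells in irradiated mice and 5, 11 and 6 in untreated mice. Of 1774 genes tested with edgeR's quasi-likelihood test, 39 (2.2%) were higher and 21 (1.18%) lower in irradiated members at a Benjamini-Hochberg adjusted p under 0.05, 60 (3.38%) in all, and 312 (17.6%) had an unadjusted p under 0.05. The groups did not overlap for 26.3% of genes, and the median gene moved by -0.03 (log2). Irradiated members of mice 1 and 3 lay mostly in cluster 21, so a second fit was made on all singlets of cluster 11 whatever their Krt19 count, with 6 and 27 cells in irradiated mice 1 and 2 and 14, 15 and 9 in untreated mice, and irradiated mouse 3, with 1 such cell, left out. There 31 genes were higher and 10 lower.

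Several genes that respond to interferon rose in irradiated members. Ifi27l2a had 3547, 2730 and 3396 CPM in irradiated mice, against 438, 189 and 473 CPM in untreated mice. The groups were far apart (log2 change 3.28 ± 0.35 SE, adjusted p = 0.00186, edgeR). Rtp4 averaged 281 ± 37.8 CPM in irradiated and 40.9 ± 28.9 CPM in untreated members (SD, n = 3 each; log2 change 2.76, adjusted p = 0.0065, edgeR). Irgm1, an interferon-induced GTPase of cell-autonomous immunity, had 292, 324 and 487 CPM, against 30.2, 23.6 and 56.1 CPM (log2 change 3.40 ± 0.39 SE, adjusted p = 0.00201, edgeR). All 3 kept their calls when any 1 mouse was left out and in cluster 11 alone. Of the interferon list, 4 of 10 tested genes rose (Ifi27l2a, Rtp4, Irf9 and Irf7) and 0 fell, with a median of 1.65 over the list (log2). Of all tested genes, 2.2% rose and 1.18% fell. Summed over the list, members had 5966, 5770 and 6924 CPM in irradiated mice and 1028, 1214 and 2068 CPM in untreated mice. The other cells rose too, with 6466, 7973 and 9795 CPM in irradiated mice and 1599, 2146 and 2281 CPM in untreated mice. Irf9, with 8 UMIs in untreated members, lost its call without any 1 of the 6 mice (adjusted p 0.0601 to 0.143) and did not pass in cluster 11 (adjusted p = 0.128). Irf7 passed in cluster 11 (adjusted p = 0.0322) and lost its call without each mouse other than untreated mouse 1 (highest adjusted p 0.143).

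Of 8 tested genes of MHC class I presentation, which displays peptides to T cells, 4 rose (H2-Q4, H2-Q7, B2m and H2-K1) and 0 fell. Their median was 1.39 (log2), and 2.2% of all tested genes rose and 1.18% fell. Summed over the list, members had 5799, 9589 and 13137 CPM in irradiated mice and 3128, 4549 and 3462 CPM in untreated mice. The other cells rose too, with 8658, 9239 and 9440 CPM in irradiated mice and 2264, 2381 and 2429 CPM in untreated mice. B2m, the shared light chain, had 1256, 2392 and 3527 CPM in irradiated mice and 514, 766 and 497 CPM in untreated mice (log2 change 2.10 ± 0.38 SE, adjusted p = 0.0207, edgeR). H2-K1 averaged 3274 ± 1064 CPM in irradiated and 1207 ± 237 CPM in untreated members (SD, n = 3 each; adjusted p = 0.0303, edgeR). H2-Q7 had 86 UMIs in irradiated and 2 in untreated members, a ratio of 27.9 with a counting interval of 7.48 to 234. In cluster 11 alone, all 4 of these genes kept their calls. With a mouse left out, B2m lost its call without irradiated mouse 3, untreated mouse 1 or untreated mouse 3 (highest adjusted p 0.0954). H2-K1 lost it without each mouse other than irradiated mouse 1 (highest 0.0986), H2-Q4 without irradiated mouse 1 or 3 or untreated mouse 2 or 3 (highest 0.102), and H2-Q7 without untreated mouse 2 or 3 (0.104 and 0.0844).

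Lcn2, lipocalin 2, which binds bacterial siderophores, had 213, 167 and 103 CPM in irradiated mice and 0 UMIs in all 3 untreated mice. It was at least 20.1-fold higher in irradiated members, taking 3 UMIs over the untreated group as the floor (adjusted p = 0.0063, edgeR), and kept its call without any 1 mouse. Cstb, cystatin B, an inhibitor of cathepsins, had 1309, 986 and 1347 CPM in irradiated mice and 30.2, 118 and 64.1 CPM in untreated mice (log2 change 4.04 ± 0.37 SE, adjusted p = 0.00104, edgeR). It too kept its call without any 1 mouse. Lcn2 and Cstb also rose in the fit on cluster 11 (log2 7.55, which depends on the prior count, and 2.79).

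Crisp3, a secreted granular duct protein, had 11838, 13699 and 15223 CPM, against 952, 3477 and 1378 CPM (log2 change 2.90 ± 0.47 SE, adjusted p = 0.0133, edgeR). Of 9 tested granular duct genes, 3 rose, Crisp3 and Klk1b5 among them, and 0 fell, against 2.2 and 1.18% of all tested genes. Crisp3 did not pass in cluster 11 (log2 1.48, adjusted p = 0.224) or without untreated mouse 3 (adjusted p = 0.0675). Klk1b5 did not pass in cluster 11 (adjusted p = 0.613) or without any 1 of the untreated mice (highest adjusted p 0.104). Outside the members the whole granular list was higher in irradiated mice too. It summed to 191292, 178727 and 224667 CPM in irradiated mice and 97133, 109801 and 94498 CPM in untreated mice. The part of this list in these changes was not tested.

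Of 16 tested peroxide handling genes, 1 rose (Hmox1) and 1 fell (Cat), where 2.2% of all tested genes rose and 1.18% fell. These counts are too small to describe the list as a whole. Cat had 531, 972 and 571 CPM in irradiated mice and 2388, 4319 and 3631 CPM in untreated mice (log2 change -2.19 ± 0.33 SE, adjusted p = 0.00854, edgeR). The 3 irradiated mice were all lower. In cluster 11 the change was -1.18 (adjusted p = 0.0719), and without irradiated mouse 3 the adjusted p was 0.0542. Hmox1, heme oxygenase 1, which degrades heme, had 399, 414 and 608 CPM in irradiated mice and 0, 88.4 and 40.1 CPM in untreated mice (log2 change 3.27 ± 0.52 SE, adjusted p = 0.0128, edgeR). It kept its call in cluster 11 and lost it without untreated mouse 3 (adjusted p = 0.0844).

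Srd5a1, steroid 5 alpha-reductase, had 13.3, 43.4 and 37.4 CPM in irradiated mice, against 121, 536 and 385 CPM in untreated mice (log2 change -3.31 ± 0.56 SE, adjusted p = 0.0178, edgeR). It did not pass in cluster 11 (log2 -2.49, adjusted p = 0.108) and lost its call without irradiated mouse 1 or 3 or untreated mouse 2 or 3 (highest adjusted p 0.0676). Ddah2, which breaks down methylated arginines, averaged 28.3 ± 8.41 CPM in irradiated and 139 ± 38.7 CPM in untreated members (SD, n = 3 each; adjusted p = 0.0297, edgeR) and lost its call without any 1 mouse (adjusted p 0.0511 to 0.167). Amot, a scaffold of the Hippo pathway, averaged 92.3 ± 18.6 and 12.3 ± 5.61 CPM in irradiated and untreated members, and Irx3, a homeobox factor, 99.6 ± 22.6 and 14.7 ± 13.5 CPM (SD, n = 3 each; adjusted p = 0.0121 and 0.0207, edgeR). Amot lost its call without untreated mouse 2 or 3 (0.104 and 0.0606), and Irx3 without those or irradiated mouse 3 (0.143, 0.0986 and 0.0800).

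Single genes of other lists also passed, where 3.38% of all tested genes passed in either direction. Mdm2, a p53 target that restrains p53, averaged 135 ± 20.9 CPM in irradiated and 33.4 ± 19.0 CPM in untreated members (SD, n = 3 each; adjusted p = 0.0376, edgeR), as the 1 gene of 11 tested on the p53 list to rise, with 0 falling. Epcam, the sorted surface protein, averaged 2408 ± 129 and 1236 ± 237 CPM (adjusted p = 0.0376, edgeR). Car2, a carbonic anhydrase, averaged 375 ± 212 and 67.8 ± 59.1 CPM (adjusted p = 0.0398, edgeR), and Lamb3, a laminin chain, 28.5 ± 15.9 and 127 ± 12.1 CPM (adjusted p = 0.0413, edgeR). Mdm2 and Epcam lost their calls without any 1 mouse (highest 0.124 and 0.122). Car2 lost it without mice 2 and 3 of either group (each alone; highest 0.169), and Lamb3 without each mouse other than irradiated mouse 2 (highest 0.189). None of these 4 passed in cluster 11 (adjusted p 0.163 for Car2, 0.0632 for Lamb3, 0.0804 for Mdm2 and 0.319 for Epcam). No gene passed among 16 immediate-early, 10 heat shock, 23 oxidative phosphorylation, 8 integrated stress response, 6 luminal transcription factor and 4 NF-kB genes tested.

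Acinar secretory products fell: 6 of 6 tested acinar genes fell (Scgb1b27, Smgc, Scgb2b26, Pip, Prol1 and Car6), as did Mucl2. Of all tested genes, 1.18% fell. Scgb1b27, a secretoglobin, averaged 19.2 ± 18.7 CPM in irradiated and 702 ± 64.6 CPM in untreated members (SD, n = 3 each; adjusted p = 0.00149, edgeR). Mucl2, a mucin-like secretory protein, averaged 72.6 ± 47.9 and 6332 ± 1157 CPM (adjusted p = 0.000659, edgeR). Smgc had 0 UMIs in irradiated and 76 in untreated members, at least 39.1-fold lower in irradiated members with the floor of 3 UMIs. The same RNAs were far lower in the other cells of the irradiated library: Scgb1b27 stood at 2256 CPM in other irradiated cells and 74296 CPM in other untreated cells. Those values sum all other cells of a library, with or without a mouse call. Over the other singlets, the means of 3 mice were 192 CPM in irradiated and 39530 CPM in untreated mice. The part of free acinar RNA in these changes was not tested.

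The label genes outside the rule did not pass. Sptssb had 59.8, 120 and 9.36 CPM in irradiated mice and 90.7, 642 and 529 CPM in untreated mice (log2 change -2.46 ± 0.69 SE, adjusted p = 0.0862, edgeR). Without untreated mouse 1 its adjusted p was 0.0353, DESeq2 gave 0.0064, and the fit with no low-count filter 1e-07. In cluster 11 the change was -0.99 (adjusted p = 0.527, edgeR). Areg had 492, 421 and 243 CPM in irradiated mice and 15.1, 560 and 8.01 CPM in untreated mice (log2 change 0.93 ± 0.92 SE, adjusted p = 0.656, edgeR). Untreated mouse 2 lay above all 3 irradiated mice, and without it the change was 5.22 (adjusted p = 0.00711). For the genes of the rule, Krt19 had 206, 241 and 271 CPM in irradiated mice and 363, 2227 and 593 CPM in untreated mice, as a description.

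**Figure D5:**
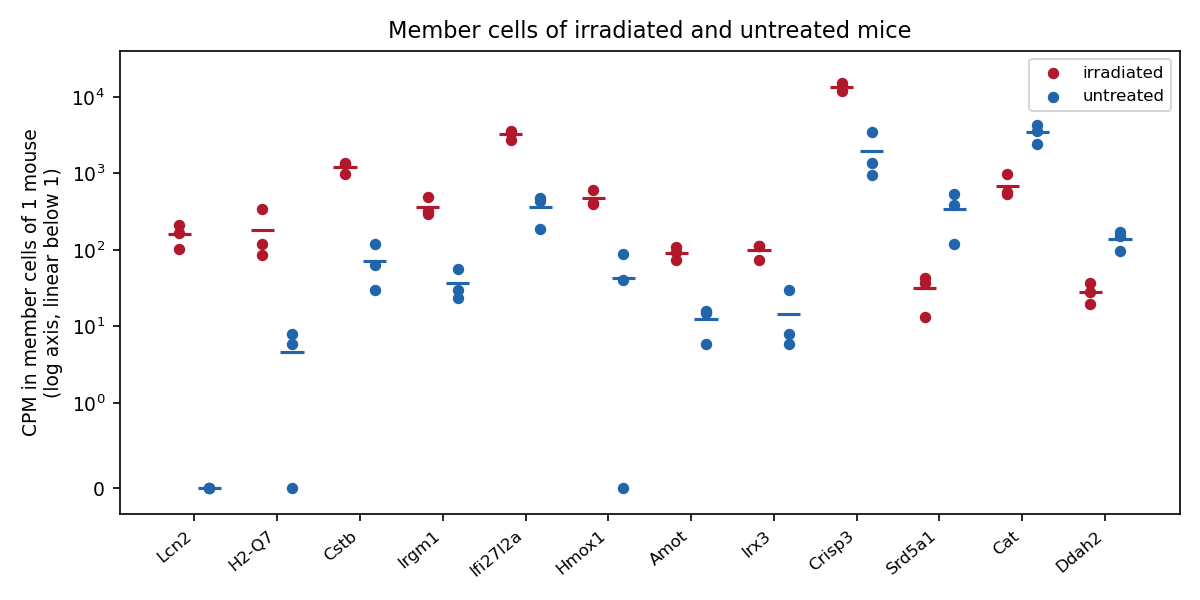
Points are the CPM of each gene in the summed members of 1 mouse (irradiated left, untreated right of each pair) and lines the mean of 3 mice, on an axis that is logarithmic and linear below 1. Lcn2 was at 0 in all untreated mice, and Cat, Srd5a1 and Ddah2 were lower in all irradiated mice. The named acinar products are not drawn.

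The other cells of the same mice also changed, with 2505 (20.9%) of 11998 genes higher and 2485 (20.7%) lower in irradiated mice, 4990 (41.6%) in all, and 6056 (50.5%) at an unadjusted p under 0.05. The irradiation effect in members was therefore set against that in all other qualifying cells in 1 model with a term for each mouse. Of 10524 genes, 50 (0.475%) had a more positive and 89 (0.846%) a more negative effect in members, 139 (1.32%) in all, and 833 (7.92%) had an unadjusted p under 0.05. The other cells are a different mixture of cell types in each library, so the difference holds for these mixtures. Without untreated mouse 2 the counts were 25 and 35, and without untreated mouse 3 they were 29 and 55. The model estimated the variance of a gene over the sums of members and of other cells together. For Srd5a1 the SE of the difference was 0.47, below the 0.56 of the change in members alone. For Sptssb the change in members alone did not pass (adjusted p = 0.0862, edgeR). The p-values of this model can thus understate the spread of members between mice, and very small ones are no measure of it.

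Irgm1 averaged 368 and 36.6 CPM in irradiated and untreated members and 203 and 89.1 CPM in other cells (difference 2.81 ± 0.46 SE, adjusted p = 3.1e-07, edgeR). Ifi27l2a also had the larger effect in members (difference 1.88 ± 0.34 SE, adjusted p = 7.83e-06, edgeR; 0.099 without untreated mouse 2). Both interferon-responsive genes rose in the other cells as well (log2 0.82 and 1.69). Of 26 tested genes of the interferon list, which does not hold Irgm1, 2 had a more positive effect in members (Ifi27l2a and Irf1) and 0 a more negative one. The shares of all genes were 0.475 and 0.846%. Of 16 tested genes of MHC class I presentation, 0 had a difference past the threshold, against 1.32% of all genes.

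Srd5a1 went opposite ways. It averaged 31.4 and 347 CPM in irradiated and untreated members and 25.1 and 3.06 CPM in the other cells, where it rose by 2.64 (difference -5.64 ± 0.47 SE, adjusted p = 1.63e-29, edgeR). Sptssb averaged 63.1 and 421 CPM in irradiated and untreated members and 11.6 and 0.355 CPM in the other cells, where it rose by 4.62 (difference -6.72 ± 0.51 SE, adjusted p = 1.28e-35, edgeR). Sptssb RNA was thus less restricted to the members in the irradiated library. Cdkn1a, a p53 target that arrests the cell cycle, averaged 494 and 751 CPM in members and 491 and 33.8 CPM in the other cells (difference -3.60 ± 0.36 SE, adjusted p = 4.06e-20, edgeR). The change of Cdkn1a in members alone did not pass (log2 -0.495, adjusted p = 0.715, edgeR). Cat averaged 692 and 3446 CPM in members and 115 and 107 CPM in the other cells (difference -1.69 ± 0.33 SE, adjusted p = 7.02e-05, edgeR), and without untreated mouse 2 its adjusted p was 0.0542.

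Members of the basal sort and of untreated whole epithelium came from untreated mice and differed in the sort. The untreated mice are the same as in the comparison with irradiated mice. Only 2 basal-sort mice reached 4 cells, so sums of 7, 2 and 4 cells were used against 5, 11 and 6, a minimum of 2 chosen after the counts were seen. Of 1456 genes, 4 (0.275%) were higher and 8 (0.549%) lower in basal-sort members (edgeR, adjusted p under 0.05), 12 (0.824%) in all, and 223 (15.3%) had an unadjusted p under 0.05. The 4 higher were Kdm6b, a histone demethylase, Vmp1, a membrane protein of autophagy, and the nuclear RNAs Neat1 and Xist. Vmp1 had 447, 650 and 657 CPM in basal-sort mice and 90.7, 112 and 176 CPM in untreated mice (log2 change 2.10 ± 0.31 SE, adjusted p = 0.0138, edgeR). Neat1 had 2175, 1837 and 2831 CPM, against 741, 619 and 433 CPM (adjusted p = 0.0154, edgeR). Without basal-sort mouse 3, none of the 4 passed (adjusted p from 0.0797 for Vmp1 to 0.125 for Kdm6b; 203 genes at an unadjusted p under 0.05, edgeR), and Kdm6b also lost its call without basal-sort mouse 2 or any 1 untreated mouse (highest 0.112). Vmp1 lost it without untreated mouse 2 (0.0599), Neat1 without basal-sort mouse 1 or untreated mouse 2 or 3 (0.0963, 0.0636 and 0.0871), and Xist without basal-sort mouse 1 or untreated mouse 1 or 3 (0.0963, 0.0674 and 0.101).

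The lower genes named were acinar products: Smgc, Scgb2b26 and Pip had 0 UMIs in basal-sort members and were at least 17.8-, 14.96- and 11.7-fold lower than in untreated members with the floor of 3 UMIs. Scgb1b27 had 1 UMI against 247, a ratio of 173 in favour of untreated members (counting interval 30.8 to 6869). Acinar RNA was also near 0 in the other basal-sort cells, where Scgb1b27 stood at 26.5 CPM, against 74296 CPM in other untreated cells. Both values sum all other cells of a library, with or without a mouse call. Smgc, Scgb2b26 and Pip lost their calls without untreated mouse 3 (0.0587, 0.101 and 0.105), and Scgb2b26 and Pip also without basal-sort mouse 1 (0.103 each).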

How the data were processed

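The authors deposited raw UMI counts per gene and barcode, made with Cell Ranger 6.1.2 on mm10 per the submitters' processing notes, and hashtag counts in the same matrices. The files are filtered barcode matrices. How doublets were treated before deposit is not given in the sources used here. Depth ranged from 58485558 to 137835128 gene UMIs per library. The intervals cover counting error only.

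The members, marker lists and gene lists were chosen with earlier results of these data known. Hashtags were called with HTODemux (Seurat 5.3.0, quantile 0.99), and cells were clustered with scanpy 1.11.5 (2000 variable genes, 30 principal components, 15 neighbours, Leiden resolution 1, no batch correction). Counts of hashtag singlets were summed per mouse and tested with edgeR 4.0.16 (filterByExpr, TMM, quasi-likelihood, Benjamini-Hochberg 0.05). The code was tested on simulated data. Shares were compared with exact permutation tests. Mice are replicates; that each hashtag is 1 mouse is read from the labels' protocols.

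Genes named were the 5 label markers, the 20 highest and 10 lowest in members in both mice with at least 10 members (at least 50 CPM, 2-fold), the 10 per direction with the largest tested change (mean of at least 30 CPM, no overlap), up to 4 per list, 5 per direction for the difference in effect and 10 by correlation. Genes beyond these were chosen after their values were seen. DESeq2 1.42.0, other factors, filters and rules were alternatives. Sequences are RefSeq's for GRCm38.p6. Of the genes that met the naming rule, 1 is not reported here.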

Additional observations from a re-analysis of the deposited data

Results flagged for a closer look

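The irradiation effect in members differed from that in all other qualifying cells of the same 6 mice for 139 of 10524 genes (1.32%). The test was the edgeR interaction term at an adjusted p under 0.05, and 9 of the genes picked by the naming rule are given here. The effect was more positive in members for Car2 (3.62, log2 difference), Scgb1b27 (3.04), Irgm1 (2.81) and Irx3 (2.78). It was more negative for Srd5a1 (-5.64), Gipc2 (-4.81), Anxa3 (-2.49), Mal (-2.20) and Nadk (-1.91). Car2, a carbonic anhydrase, averaged 375 and 67.8 CPM in irradiated and untreated members and 158 and 199 CPM in the other cells. Gipc2 averaged 31.1 and 101 CPM in irradiated and untreated members and 13.6 and 0.874 CPM in the other cells. Anxa3, an annexin, averaged 215 and 484 CPM in members and 168 and 42.04 CPM in the other cells. Scgb1b27 fell in both, to 19.2 against 702 CPM in members and to 192 against 39530 CPM in the other cells. The difference for Scgb1b27 lost its call without irradiated mouse 3 (adjusted p = 0.351), and that for Irx3 without untreated mouse 2 or 3 (0.136 and 0.119). Groups of 3 mice were too small for a check of single outlying mice. Members and other cells were each a different mixture in irradiated and untreated mice.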

How the results depend on the processing

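The difference in member share between irradiated and untreated mice, 0.162 points, became 0.579 over all barcodes of each library, -0.572 after thinning, 0.801 with at least 2 Duox and 1 Krt19 UMIs, -0.291 with at least 6 and 4, and -0.556 with mice assigned by hashtag share. With a mouse left out it ran from 0.00847 to 0.373. For the basal sort, the difference of -0.617 became -0.920 with at least 2 Duox and 1 Krt19 UMIs and -1.38 by hashtag share, and -0.770 to -0.406 with a mouse left out. The 41 genes lower in members became 103 after thinning, 87 against luminal classes alone and 10 over all 6 mice, where the 138 higher became 23. The 39 higher and 21 lower genes in irradiated members became 148 and 78 with no low-count filter, 97 and 50 with at least 2 Duox and 1 Krt19 UMIs, and 24 and 9 without Scrublet doublets, which drops irradiated mouse 1. They became 31 and 10 in cluster 11 and 52 and 31 with DESeq2. With a mouse left out they ran from 11 to 28 and from 8 to 26, and were 24 and 9 without irradiated mouse 1, 22 and 18 without mouse 2 and 15 and 8 without mouse 3; without untreated mice 1, 2 and 3 they were 28 and 26, 18 and 9, and 11 and 10. The differences in effect ran from 25 to 68 more positive and from 35 to 124 more negative genes. The difference in the Areg effect, -3.18, ran from -3.96 (without untreated mouse 3) to 0.50, its sign turned, without untreated mouse 2. Basal-sort counts of 4 higher and 8 lower became 36 and 24 with no low-count filter, and ran from 0 to 5 and from 5 to 10 with a mouse left out. The cause of these shifts was not tested.

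Replicate numbers are hashtag numbers and do not pair mice: correlations of same-numbered deviations were 0.04, -0.03 and -0.05. With the replicate block the irradiated counts were 14 and 15, the share difference stayed at 0.162, and the basal-sort counts were 17 and 14. Of 31 genes named with a call in irradiated members, 20 passed with the block, 18 passed in cluster 11, and 13 passed in every fit with a mouse left out. The comparison of irradiated and untreated members was not run with mice by hashtag share, at least 6 and 4 UMIs, at most 10% mitochondrial UMIs or only luminal duct-like members, since each left 1 mouse in a group. The effect in members was to be set against granular and intercalated duct-like cells, which was not run; it was set against all other cells in place of 1 class. Sums of 5 to 14 cells per mouse limit all of these comparisons.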

Other observations

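The 55 members in cluster 11 and the 42 other cells of that cluster had Duox counts with medians of 58 and 41.5 UMIs, and the Krt19 limit divided them. In the irradiated library 19 members and 21 others of cluster 11 had medians of 50 and 44 Duox UMIs, in the basal sort 15 members and 1 other cell had 73 and 42, and in untreated epithelium 21 and 20 cells had 57 and 39.5. A basal duct-like cluster of the basal sort (186 other cells, led by Ifi202b, Fst and Tnc) held Duox RNA as well, at 19.3 CPM with at least 1 UMI in 17.2% of cells, and 98.5 CPM of Krt19. The 4 basal-sort clusters of basal duct-like cells with little Krt19 stood at 0 to 0.570 CPM of Duox. Cxcl10, a chemokine induced by interferon, came from few members: 153 of 169 UMIs in irradiated, 150 of 151 in basal-sort and 76 of 76 in untreated members lay in 3 cells each.

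Gdf15, a stress-induced cytokine, had 325 UMIs in irradiated members (427 CPM, against 71.3 CPM in the other cells), 6 in basal-sort members and 7 in untreated members. Its effect of irradiation was larger in members than in other cells (difference 2.72 ± 0.56 SE, adjusted p = 0.00022, edgeR), and this was lost without irradiated mouse 3 (adjusted p = 0.829).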
